A study of Saccharomyces cerevisiae with 10 samples.

Results

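Several enzymes that handle sugar phosphates in budding yeast (Saccharomyces cerevisiae) are encoded by pairs of paralogous genes, and 5 such pairs are described here: SOL4 and SOL3, GND2 and GND1, TKL2 and TKL1, NQM1 and TAL1, and GPM2 and GPM1. The pairs were listed by name, and were chosen by measured values: the change from room temperature to 35 °C on these same arrays was known when they were listed. That change is therefore given as a description and was not tested. All 10 genes were measured, each by 1 probe set, out of 5449 genes. The first gene of each pair is called the stress paralog below, and the second its partner.

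The pentose phosphate pathway takes glucose 6-phosphate through an oxidative branch, which makes NADPH and ribulose 5-phosphate, and a non-oxidative branch, which returns pentose phosphates to glycolysis. NADPH from this route feeds biosynthesis and the defence against oxidants. In yeast, one gene of a pair often carries most of the flux during growth on glucose, while the other is known from stationary phase, other carbon sources or stress, where the transcription factors Msn2 and Msn4 act on many general stress genes.

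Each strain carried a temperature-sensitive allele of a component of the SCF ubiquitin ligase: cdc53-1 (strain py175, cullin), cdc34-3 (py24, ubiquitin-conjugating enzyme), cdc4-3 (py187, F-box protein), skp1-11 (W303) or skp1-25 (py1374), the last pair in the adaptor Skp1. Cells were grown at 25 °C, called room temperature (RT), in YPDA, a rich glucose medium. For each strain, 1 array was made after 1 h at 35 °C and 1 array after 1 h at RT, which gives 10 arrays, 5 at each temperature. Arrays of a strain with an unmutated SCF are not among those analysed here, and no label says that cultures were repeated, so a change holds warming and loss of SCF function together, which cannot be told apart, and the strains serve as the replicates of the temperature shift. All values were taken as log2 from their range, since no label names the log base. On that scale a difference of 1 is a doubling.

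Array medians ran from 10.96 to 11.14, and the median change of all genes was 0.05. The cdc53-1 arrays stood apart in several a-type genes. STE2, the alpha-factor receptor gene of a-type cells, had 6.41 at 35 °C and 7.39 at RT there, against 12.15 to 12.76 and 12.87 to 13.24 in the other strains. MFA1, MFA2 and STE6 were also lowest there at both temperatures. BAR1 did not follow. Its 7.64 at 35 °C and 7.91 at RT stood beside 7.26 and 7.57 in cdc4-3 and 7.71 and 7.86 in skp1-25. Alpha-type genes went different ways. At 35 °C cdc53-1 was highest in STE3 (8.20, against 8.18 in skp1-11) and MF(ALPHA)2 (6.85). It was lowest in MF(ALPHA)1 (4.71) and within the other strains in SAG1 (9.77). At RT cdc53-1 was again highest in STE3 (6.79, against 6.77 in skp1-11) but lowest in SAG1 (9.58). There it lay below cdc4-3 in MF(ALPHA)2 (6.17 and 6.44) and below skp1-11 in MF(ALPHA)1 (5.03 and 5.10). The labels give no mating type. The part of these a-type gene differences in the results below was not tested. The mean differences within pairs without cdc53-1 are given with those results. An array of a culture cannot tell a change in RNA per cell from a change in the share of cells that express a gene.

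In the oxidative branch, SOL4, which encodes a 6-phosphogluconolactonase, stood higher at 35 °C in every strain while its partner SOL3, which encodes the same activity, changed little. SOL4 had 12.97 in cdc4-3, 12.26 in cdc34-3, 12.42 in cdc53-1, 11.58 in skp1-25 and 11.49 in skp1-11 at 35 °C, against 11.40, 11.09, 11.48, 10.36 and 9.88 at RT in the same order of strains. All 5 values at 35 °C lay above all 5 at RT, though skp1-11 at 35 °C and cdc53-1 at RT nearly met. The mean change of SOL4 was 1.30 ± 0.28 (SD, n = 5), a 2.46-fold difference, with changes from 0.93 in cdc53-1 to 1.60 in skp1-11. SOL3 spanned 12.05 to 12.50 at 35 °C and 12.24 to 12.54 at RT, and its change averaged -0.15 ± 0.16, negative in 4 of 5 strains.

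GND2, which encodes the minor form of 6-phosphogluconate dehydrogenase, showed the smallest difference of the 5 stress paralogs. Its values at 35 °C were 12.11 in cdc4-3, 11.40 in cdc34-3, 11.57 in cdc53-1, 11.22 in skp1-25 and 11.87 in skp1-11, against 11.29, 11.10, 11.30, 11.00 and 11.43 at RT. The temperatures overlapped, because cdc34-3 and skp1-25 at 35 °C lay below skp1-11 at RT. Within each strain GND2 was nevertheless higher at 35 °C, on average by 0.41 ± 0.24 (SD, n = 5) or 1.33-fold. GND1, the major form, ran from 13.18 to 13.70 at 35 °C and from 13.33 to 13.55 at RT, with a mean change of 0.00 ± 0.20 and 3 of 5 strains above 0.

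In the non-oxidative branch, the minor transketolase gene TKL2 differed more between strains than any other member. At 35 °C it had 11.20 in cdc4-3, 8.41 in cdc34-3, 8.69 in cdc53-1, 10.09 in skp1-25 and 10.29 in skp1-11, against 8.68, 7.59, 7.25, 9.05 and 8.58 at RT. The groups overlapped, since cdc53-1 and cdc34-3 at 35 °C did not reach skp1-25 at RT. Its change averaged 1.51 ± 0.66 (SD, n = 5), 2.84-fold, with 2.52 in cdc4-3 at the top and 0.82 in cdc34-3 at the bottom. TKL1, the main transketolase gene, kept to 13.55 to 13.74 at 35 °C and 13.50 to 13.70 at RT, and its mean change was 0.01 ± 0.13.

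NQM1, a paralog of the transaldolase gene TAL1, had the largest difference among the 10 genes, with the rank 4 of 5449 among the mean rises of all genes. Its values at 35 °C were 12.90 in cdc4-3, 11.24 in cdc34-3, 11.91 in cdc53-1, 11.61 in skp1-25 and 10.68 in skp1-11, against 9.43, 8.94, 9.04, 9.54 and 8.80 at RT. No value at 35 °C came near those at RT. The mean change was 2.52 ± 0.65 (SD, n = 5), 5.72-fold, and single strains ran from 3.67-fold in skp1-11 to 11.0-fold in cdc4-3. At RT the strains lay within 0.74 of each other, while at 35 °C they spanned 2.22. TAL1, the non-oxidative enzyme that exchanges carbons between sugar phosphates, had 13.43 to 13.87 at 35 °C and 13.40 to 13.65 at RT, a mean change of 0.13 ± 0.18 with 3 of 5 strains above 0.

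The glycolytic pair is GPM2 and GPM1. GPM1 encodes phosphoglycerate mutase, which moves the phosphate of 3-phosphoglycerate in lower glycolysis, and GPM2 a homologue of it. GPM2 had 11.96 in cdc4-3, 11.79 in cdc34-3, 11.29 in cdc53-1, 11.06 in skp1-25 and 11.70 in skp1-11 at 35 °C, against 9.63, 10.58, 10.55, 9.30 and 9.40 at RT. The temperatures did not overlap, and its strains spread less at 35 °C (0.91) than at RT (1.28), the reverse of NQM1 and TKL2. The strains with the higher RT levels, cdc53-1 and cdc34-3, had the smaller changes, 0.74 and 1.22, where the other strains had 1.76 to 2.33. The RT value is subtracted in the change, so a high RT value by itself makes the change smaller. Nothing is read from this relation. Its mean change was 1.67 ± 0.69 (SD, n = 5), or 3.18-fold. GPM1 was higher at 35 °C in 5 of 5 strains by only 0.14 ± 0.06, with 14.39 to 14.47 at 35 °C and 14.26 to 14.35 at RT.

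**Figure D1:**
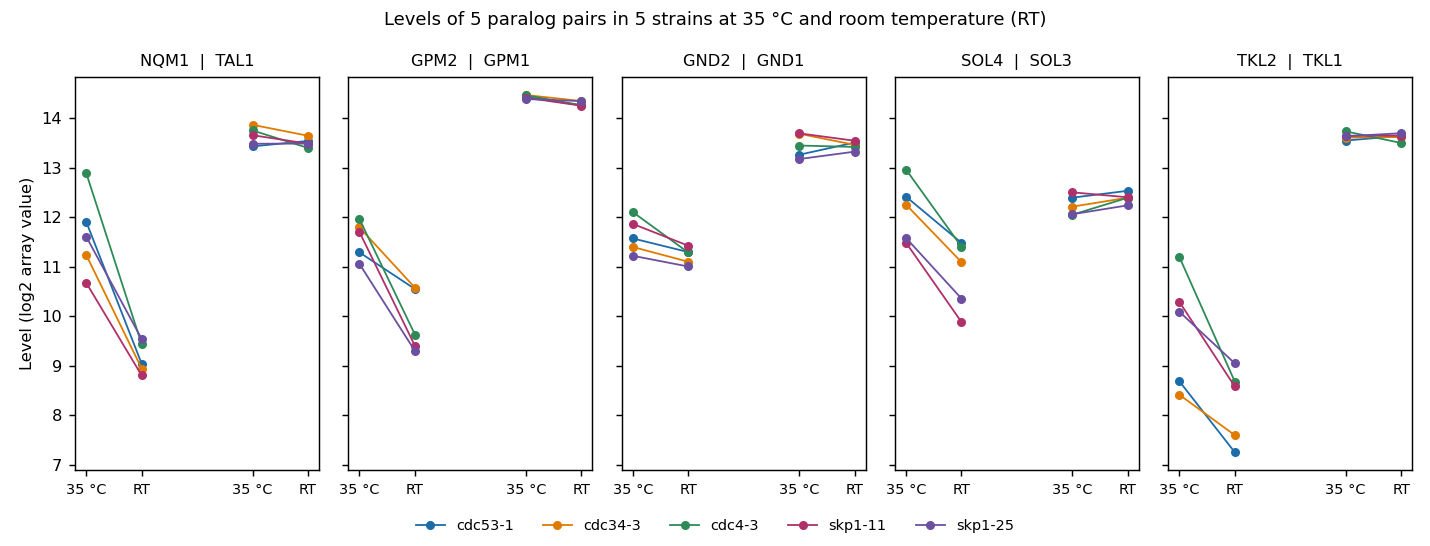
Levels (log2 array value, vertical axis) of the 5 pairs at 35 °C and room temperature (RT), the stress paralog left and its partner right in each panel, 1 line per strain. Lines of the stress paralogs slope down from 35 °C to RT in every strain, and those of the partners are nearly flat; levels of different probe sets are not comparable.

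Values at 35 °C and RT did not overlap for 3 of the 5 stress paralogs (NQM1, GPM2 and SOL4) and for 1 partner, GPM1. Over all genes, 6.35% had all 35 °C values above all RT values, and 21.7% had a higher value at 35 °C in 5 of 5 strains. Nothing is read from these counts, since the choice of genes drew on the same contrast. Median centring lowered the mean change of each member by the same 0.07. TKL1 and GND1, which stood at 0.01 and 0.00 as deposited, then averaged -0.06 and -0.07, so no direction is given for them. GPM1 averaged 0.06 after median centring and 0.03 after quantile normalization.

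Brightness differs within the pairs. Genes were split into 5 near-equal bins by mean level, bin 1 the dimmest. Every partner lay in bin 5, where the median absolute change over all genes was 0.11 and its 90th percentile 0.38. Among the stress paralogs, TKL2 lay in bin 1, where these were 0.27 and 1.00, NQM1 in bin 2 (0.16 and 0.48), GPM2 in bin 3 (0.15 and 0.43), and SOL4 and GND2 in bin 4 (0.14 and 0.43). GPM1 came within 0.03 to 0.30 of the highest value on its array. A part of signal saturation in the small changes of the partners was not tested.

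Taking the change of the stress paralog minus that of its partner within each strain compares the members of a pair without comparing their levels. This difference was above 0 in 5 of 5 strains for each pair. It averaged 2.39 ± 0.62 for NQM1 and TAL1, 1.53 ± 0.69 for GPM2 and GPM1, 1.49 ± 0.56 for TKL2 and TKL1, 1.45 ± 0.30 for SOL4 and SOL3, and 0.41 ± 0.27 for GND2 and GND1 (SD, n = 5 each). Without cdc53-1 the same means were 2.24, 1.77, 1.49, 1.54 and 0.38. The pair of GND2 and GND1 came closest to 0 in cdc34-3, at 0.07, where GND2 changed by 0.30 and GND1 by 0.23. Among these 5 pairs, the widest gap in any strain was 3.11, for NQM1 and TAL1 in cdc4-3.

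**Figure D2:**
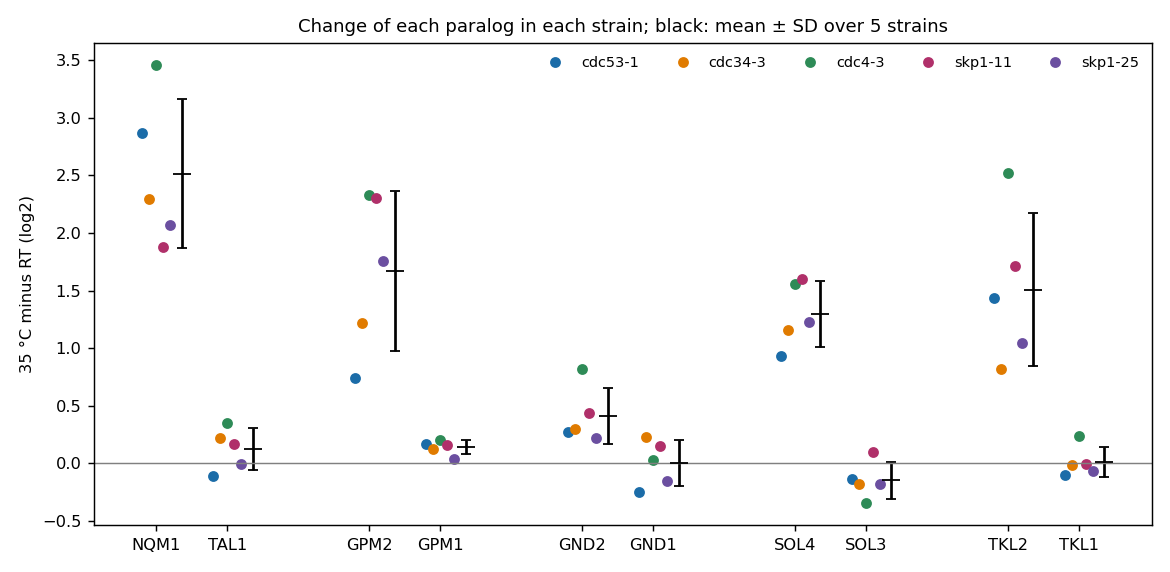
Change from RT to 35 °C (35 °C minus RT, log2, vertical axis) of each paralog in each of the 5 strains (coloured points), with the mean ± SD in black. All 25 points of the stress paralogs lie above 0, and those of the partners scatter between -0.34 and 0.35.

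The strains differed in the level of several members at both temperatures. These levels were also in view when the genes were listed, so they are given as a description. Each allele came in a strain of its own name, with 1 array at each temperature. A part of the allele therefore cannot be told from other differences between strains or cultures. SOL4 was low in both skp1 strains: its mean over both temperatures was 10.68 in skp1-11 and 10.97 in skp1-25, against 11.95 in cdc53-1, 11.67 in cdc34-3 and 12.18 in cdc4-3, and the skp1 strains lay below the others at 35 °C and at RT alike. TKL2 was low in cdc53-1 (7.97) and cdc34-3 (8.003), against 9.94 in cdc4-3, 9.44 in skp1-11 and 9.57 in skp1-25, again at each temperature. The strains lowest in TKL2 were not those lowest in SOL4.

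The strain means of the other stress paralogs spanned 1.43 for NQM1, 0.58 for GND2 and 1.01 for GPM2. Those of the partners spanned 0.07 for TKL1, 0.07 for GPM1, 0.27 for TAL1, 0.31 for SOL3 and 0.37 for GND1, and over all genes the median span was 0.43. Across all genes, the limma F test of the strain term called 8.75%, and SOL4 and TKL2 were among those called. No support is drawn from these 2 calls: that of TKL2 was lost when any strain but cdc4-3 was left out, and that of SOL4 without skp1-11. Such fits also have fewer arrays. The F of TKL2 was 12.2 with all strains and 9.07 without cdc53-1, 13.3 without cdc34-3, 12.8 without skp1-11 and 14.4 without skp1-25. That of SOL4 was 26.3 with all strains and 20.9 without skp1-11.

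The measured changes also differed in size between strains. The highest change was in cdc4-3 for 7 of the 10 genes, among them the stress paralogs NQM1, GPM2, GND2 and TKL2. Over all genes, 26.4% had their highest change in that strain. GPM2 was nearly level there with skp1-11 (2.33 and 2.30). These 7 genes share 1 pair of arrays, so they are not separate observations of cdc4-3. The median change of the 5 stress paralogs was 2.33 in cdc4-3, 1.16 in cdc34-3, 0.93 in cdc53-1, 1.23 in skp1-25 and 1.71 in skp1-11, beside medians of 0.10, 0.06, -0.00, 0.02 and 0.10 over all genes. NQM1 changed by 3.46 in cdc4-3, against a mean of 2.28 in the other strains. For TKL2 these were 2.52 and 1.25, and for GND2 0.82 and 0.31.

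GPM2 changed least in cdc53-1, by 0.74, against a mean of 1.90 in the other strains, and so did SOL4, by 0.93 against 1.39. NQM1, TKL2 and GND2 each changed least in a different strain. A test of a strain's change against the other 4 sets 1 value against 4. limma called 0 of 5449 genes in each of the 5 strains, with 197 to 477 genes at an unadjusted p under 0.05, and nothing is read from it about the members.

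Other genes of the pentose phosphate pathway were examined in the same fit. limma called 13% of all genes higher and 4.61% lower at 35 °C. Of 14 other genes listed for the pathway, 0 were called, with 5 higher and 2 lower at an unadjusted p under 0.05. Their median change was 0.04 beside 0.05 for all genes. The 14 include SOL1, SOL2 and the regulator gene STB5 as well as enzyme genes. ZWF1, the glucose 6-phosphate dehydrogenase gene at the head of the oxidative branch, averaged 13.11 at 35 °C and 12.87 at RT (difference 0.24 ± 0.19, adjusted p = 0.102). SOL1 and SOL2 are relatives of SOL3 and SOL4 linked to tRNA export. SOL1 differed by -0.68 ± 0.69, the largest mean difference of the 14, lower in 4 of 5 strains and by as much as -1.56 in cdc34-3 (adjusted p = 0.107). SOL2 differed by 0.31 ± 0.20 (adjusted p = 0.0533), and RKI1, the ribose 5-phosphate isomerase gene, by -0.25 ± 0.17 (adjusted p = 0.0724). RPE1, the epimerase gene, differed by -0.05 ± 0.06, and SHB17, the sedoheptulose bisphosphatase gene, by -0.03 ± 0.06 (adjusted p = 0.596 and 0.739). STB5, which encodes an activator of pathway genes, differed by 0.04 ± 0.15 (adjusted p = 0.773). A variance prior that follows the mean level called SOL2 and ZWF1 higher and RKI1 lower (adjusted p = 0.0268, 0.0486 and 0.0395), leaving out the genes of bin 1 called SOL2 (0.0400), and median centring called RKI1 lower (0.0457).

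Of 24 other genes listed for glycolysis and gluconeogenesis, the regulator gene GCR1 among them, limma called 2 higher and 0 lower. At an unadjusted p under 0.05, 7 were higher and 1 lower, and the median change was 0.13. TDH1, a glyceraldehyde 3-phosphate dehydrogenase gene, rose by 0.87 ± 0.28 in 5 of 5 strains (adjusted p = 0.00669). PFK26, which encodes a kinase that makes fructose 2,6-bisphosphate, rose by 0.68 ± 0.35 in 5 of 5 strains (adjusted p = 0.0195), a call lost without cdc53-1 (0.0513) or skp1-11 (0.0641). GPM3, the remaining homologue of GPM1, averaged 10.09 at 35 °C and 10.28 at RT, a difference of -0.19 ± 0.10 that was negative in 5 of 5 strains (adjusted p = 0.0920). It was called lower after median centring (-0.26, adjusted p = 0.0303) and after quantile normalization (-0.23, adjusted p = 0.0406). GCR1, an activator of glycolytic genes, differed by 0.10 ± 0.09 (adjusted p = 0.319).

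General stress genes were called higher in 17 of 26 and lower in 0, beside 13% higher and 4.61% lower over all genes. Their median change was 0.60, beside 0.05 for all genes. The 6 with the largest moderated statistic were GAC1 (1.66 ± 0.11), TFS1 (1.52 ± 0.24), ALD3 (2.28 ± 0.43), TSA2 (1.88 ± 0.35), HSP12 (1.30 ± 0.24) and HSP26 (2.67 ± 0.64), with adjusted p from 0.000479 to 0.00307. The list was written with several of these rises known and is no independent evidence of direction. It includes MSN2 and MSN4, and shares HXK1 and GLK1 with the glycolysis list. MSN2 and MSN4, which encode the stress transcription factors, differed by 0.06 ± 0.11 and 0.13 ± 0.34 in transcript level (adjusted p = 0.529 and 0.539).

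The genes whose changes over the 5 strains lay nearest to those of each stress paralog were found by the root mean square difference, a description over 5 changes. For NQM1 they were ALD3 (0.47), SPI1 (0.52) and GPG1 (0.62), for SOL4 HSP12 (0.22), HBN1 (0.25) and SSA4 (0.25), and for TKL2 PAI3 (0.16), GIP2 (0.20) and SPG4 (0.27). GPM2 was nearest to YHR140W (0.29), GCV1 (0.43) and PCH2 (0.45), and GND2 to HSP10 (0.05), ECM4 (0.05) and NTH2 (0.07). Of the 5 stress paralogs, none was among the 3 genes nearest to another. Among themselves SOL4 and TKL2 were the closest (0.52), followed by GPM2 with SOL4 (0.53) and with TKL2 (0.55), and GND2 and NQM1 the farthest apart (2.16). The measure takes in the size of the mean change as well as its pattern over strains. The mean changes of GND2 and NQM1 were 0.41 and 2.52.

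For comparison, 9 other isoenzyme pairs of sugar metabolism were treated in the same way, with the gene listed first taken as the counterpart of a stress paralog. The difference was above 0 in 5 of 5 strains in 5 of these 9 pairs. The listed pairs were chosen with their changes known. That choice bears on where they stand against these 9, so nothing is read from the comparison. The phosphoglucomutase pair PGM2 and PGM1 stood at 1.86 ± 0.72, within the range of the listed pairs, where PGM2 rose by 0.86 ± 0.26 (adjusted p = 0.00635) and PGM1 fell by 1.002 ± 0.54 (adjusted p = 0.0199). TDH1 and TDH3 followed at 0.83 ± 0.28, then GPD1 and GPD2 of glycerol synthesis at 0.55 ± 0.28, the hexokinase genes HXK1 and HXK2 at 0.38 ± 0.26, PFK26 and PFK27 at 0.38 ± 0.35, GPP2 and GPP1 at 0.37 ± 0.28, the enolase genes ENO1 and ENO2 at 0.26 ± 0.28, and the pyruvate kinase genes PYK2 and CDC19 at 0.12 ± 0.24 (SD, n = 5 each). EMI2 and the glucokinase gene GLK1 ran the other way, at -0.51 ± 0.21. Several of these genes were as bright as the arrays recorded: TDH3 had the highest value on all 10 arrays, CDC19 came within 0.04 to 0.25 of it and ENO2 within 0.09 to 0.28, and a part of signal saturation in their changes, and in the pair differences that use them, was not tested. PGM1 differs from the partners of the listed pairs in that its own change was far from 0. In cdc4-3 the difference of PGM2 and PGM1 reached 3.11, as wide as that of NQM1 and TAL1 there.

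**Figure D3:**
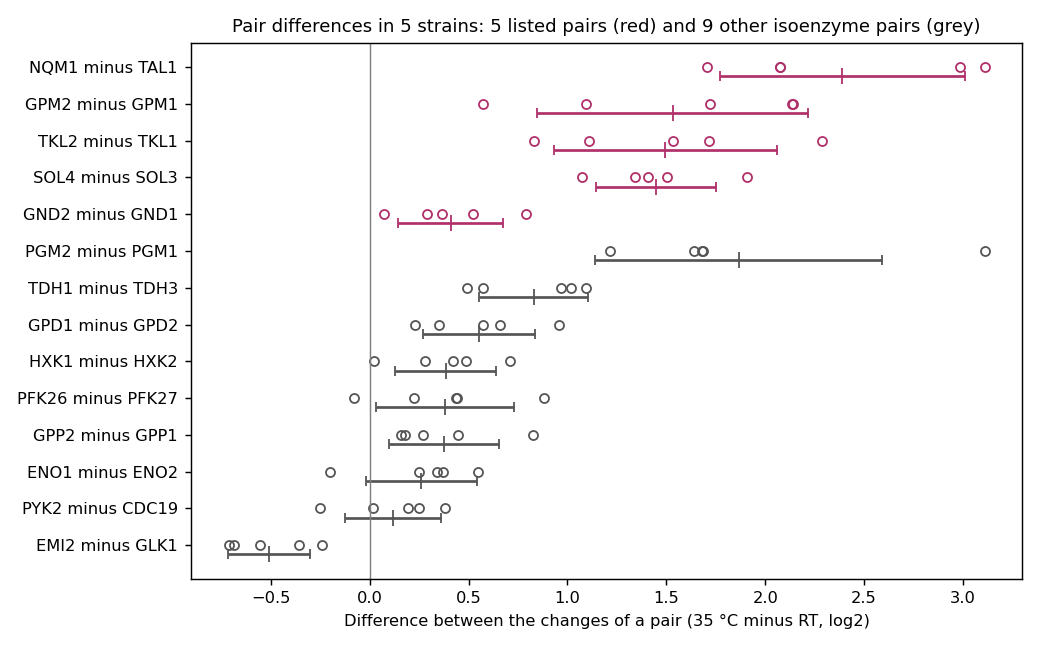
Difference between the changes of the genes of a pair (horizontal axis, log2) in each of 5 strains (open circles), with the mean ± SD below, for the 5 listed pairs in red and 9 other isoenzyme pairs in grey. Of the listed pairs 4 average between 1.45 and 2.39, a range that PGM2 and PGM1 alone of the other pairs enter, at 1.86, and GND2 and GND1 lie among the others at 0.41. The listed pairs were chosen with their changes known, so nothing is read from how they lie beside the others.

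SOL4 and GND2 lie near each other on chromosome VII, and their partners SOL3 and GND1 near each other on chromosome VIII, in RefSeq's gene order of assembly R64. Between SOL4 and GND2 there are 7 protein-coding genes, ENO1 among them, and between SOL3 and GND1 there are 20, ENO2 among them, so the enolase pair sits in the same intervals. Of the 6 measured between SOL4 and GND2, the changes had a median of 0.14, and 0 were called higher and 1 lower, the histone acetyltransferase gene GCN5 (-0.35 ± 0.16, adjusted p = 0.0273). MGA1, next to SOL4, differed by 0.62 ± 0.51 (adjusted p = 0.0661), and ENO1 by 0.34 ± 0.26 (adjusted p = 0.0695). Between SOL3 and GND1 the 16 measured genes had a median of 0.02, with 1 called higher, the NADPH dehydrogenase gene OYE2 (0.44 ± 0.11, adjusted p = 0.00942), and 0 lower, while ENO2 differed by 0.08 ± 0.02 (adjusted p = 0.340). FMO1 had the highest mean change there, 0.74 ± 0.79, above 0 in 5 of 5 strains (adjusted p = 0.115). These counts stand beside 13% called higher and 4.61% lower over all genes, and nothing is read from them about the intervals. GCN5, MGA1, OYE2 and FMO1 are named after their values were seen.

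**Figure D4:**
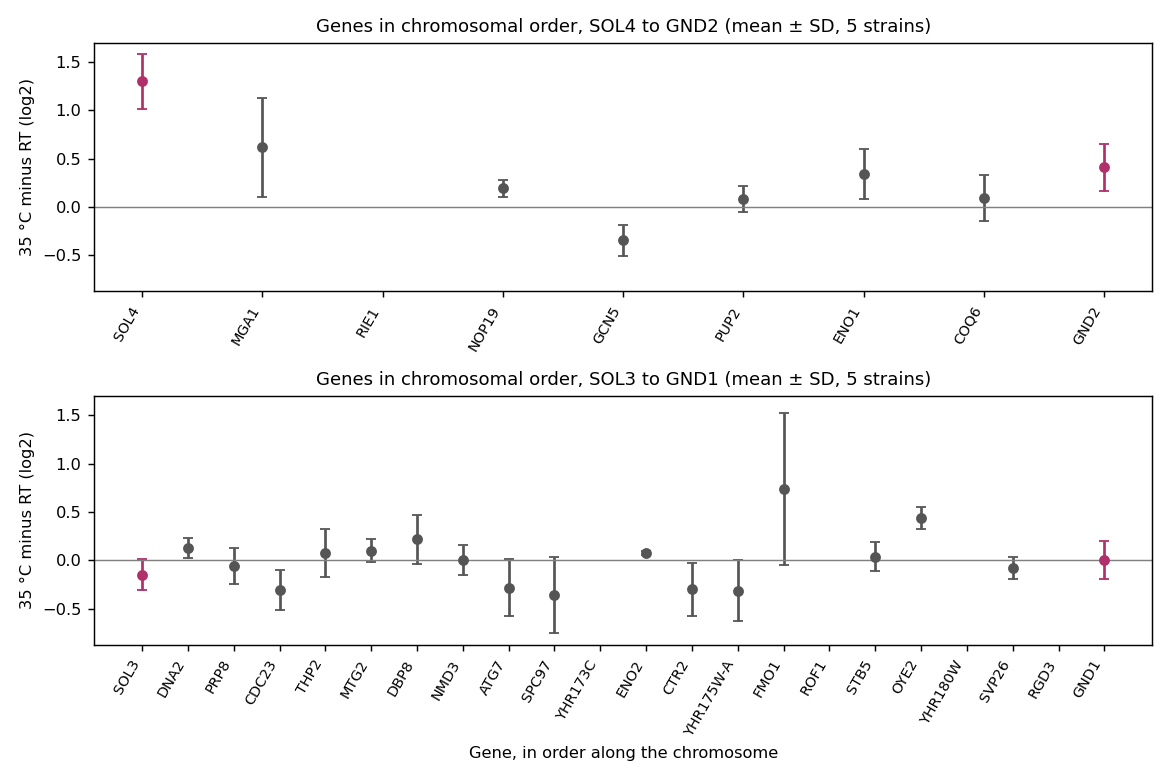
Mean change (35 °C minus RT, log2, vertical axis; bars show the SD over 5 strains) of genes in chromosomal order from SOL4 to GND2 (top) and from SOL3 to GND1 (bottom), with the 4 paralogs in red; places without a point were not analysed here. SOL4 at 1.30 stands above all 6 measured genes that follow it, of which MGA1 at 0.62 is the highest. SOL4 was listed with its rise known, so nothing is read from this.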

How the data were processed

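The deposited values, 1 per probe set and array, were taken as log2 because of their range (0 to 14.67). Per the labels' protocols, biotin-labelled cRNA from total RNA was hybridised to Affymetrix arrays. Probe summary, background correction, normalization and detection calls stayed unknown, as no source used here gives them. Of 5716 probe sets, 5498 had 1 gene symbol in the platform annotation, 0 several and 218 none. RefSeq R64 updated 12 symbols, and of 47 genes with several probe sets the brightest was kept, which left 5449 genes. The number of arrays limits the precision.

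Strain pairs the arrays: deviations from the temperature means correlated at 0.43 to 0.77 within strains and at most 0.12 between them. limma 3.58.1 (R 4.3.3; lmFit, eBayes) was fitted to all genes with strain and temperature, two-sided, with Benjamini-Hochberg adjustment and a threshold of 0.05. Simulated data had 20 runs of 5449 genes, 200 of them changed. For changes of 0.5, 1 and 2 made in all strains, the temperature fit recovered 61%, 89.9% and 97.7%. For shifts of these sizes in 1 strain, with no other strain differences, the strain term recovered 9.4%, 58.7% and 87.1%. Differences of several strains, as in SOL4 and TKL2, were not simulated. Members, lists and pairs were chosen with earlier results of these data known. Named genes are the members, the isoenzyme pairs, up to 6 called genes per list, set regulators and markers, and the 3 genes nearest to each stress paralog.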

Additional observations from a re-analysis of the deposited data

Results flagged for a closer look

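The change of TKL1 in cdc4-3, 0.24, lay apart from the other 4 strains, which ran from -0.10 to -0.00. Its gap to the nearest strain was 0.717 of the whole range, just above Dixon's critical value of 0.71 for 5 values. It was the only 1 flagged of 30 groups examined (the levels at 35 °C, the levels at RT and the changes of 10 genes), and chance flags about 1 in 20 groups.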

How the results depend on the processing

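The 5 pair differences kept their direction and moved by less than their SD under every scaling and without any strain: without each strain in turn they ran from 2.21 to 2.56 for NQM1, 1.38 to 1.77 for GPM2, 0.31 to 0.49 for GND2, 1.33 to 1.54 for SOL4 and 1.30 to 1.66 for TKL2. Of the changes of single members, that of GPM1 moved by more than its SD, from 0.14 to 0.0645 after median centring and 0.03475 after quantile normalization. Over all genes, 706 were higher and 251 lower (73.8% higher), against 524 and 503 after median centring (51%), 487 and 530 after quantile normalization (47.9%), and 282 and 67 with no replicate block for strain, which changed no call of TDH1, PFK26 or the 6 named stress genes. Without each strain in turn, 291 to 527 were higher and 80 to 136 lower, the strain term called 162 to 459 genes against 477, and 0 to 2 members against 2. Leaving out the genes in the dimmest of 5 bins removed TKL2, so that 9 of the 10 members were tested and 1 was called. The other pentose phosphate genes had 0 calls each way, except for 1 higher without that bin, 2 higher and 1 lower with the variance trend, and 1 lower after median centring. The other glycolysis genes had 2 higher and 0 lower, against 5 higher with the variance trend, 1 lower after each rescaling, and 1 to 5 higher without a strain (5 without skp1-25, 1 without cdc53-1 or skp1-11). The causes of these changes were not tested. No detection calls were used here, so the low levels of TKL2 cannot be set against background.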
